A study of Mus musculus with 462 samples.

Results

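The linc1319 exon 3 deletion clones are 4 clonal mouse embryonic stem cell lines, of 462 samples in the series, chosen by their labels alone (title, deletion name and date 150801). Each clone gave 1 poly(A)+ RNA library, and the clones are named here by their wells, A3, B4, B7 and H2. They were set against the 29 clones labelled Control that carry the same date. The study edited long noncoding RNA loci in an F1 hybrid of the 129 and Castaneus strains and asked whether neighbouring genes respond on the edited chromosome (in cis) or on both. All clones come from the line F1 2-1 and were grown in 2i/LIF medium without serum. Reads were captured with probes for a panel of transcripts and counted separately for each parental allele, in 2 columns called the first and the second allele below, because the strain behind each column is not stated. The labels do not say which allele carries the deletion, nor whether 1 or both do. They name the line as female while the growth protocol names male cells.

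A long noncoding RNA locus can act on a neighbouring gene through its promoter, through the act of transcription and splicing, or through the mature RNA, and removing an internal exon alters the mature RNA and its splicing while leaving the promoter in place. linc1319, also called Blustr, lies next to Sfmbt2. Sfmbt2 encodes a Polycomb group protein with MBT repeats and is paternally expressed in the mouse placenta.

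linc1319 spans chr2:10249878-10286859 in mm9, and its exon rows in the files lie at 10266844-10267050 (exon 2, 207 bp), 10263153-10263437 (exon 3, 285 bp) and 10260949-10261164 (exon 4, 216 bp). Sfmbt2 lies at chr2:10292078-10516880, 5.22 kb away. The exon rows overlap the linc1319 row, so they were kept out of library sizes. The 4 libraries held 675701 to 1259328 allele-assigned counts, and the Control libraries 423609 to 1563744. All values below are CPM (counts scaled to 1e+06 per library) of that total unless given as counts. Of the embryonic stem cell markers looked for, 3 of 20 are on the panel, and Nanog stood at 20802 to 25501 CPM in the exon 3 deletion clones against 20408 to 34378 CPM in Control clones. No marker of feeder fibroblasts, of 6 looked for, is on the panel. The labels do not say how the clones were derived from one another, so p-values measure the spread between these clones.

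The exon 3 row separated the clones into 3 classes. Clone A3 had 9 counts on the first allele and 175 on the second. Clone H2 had the same arrangement, with 5 counts on the first allele and 125 on the second. Clone B4 was the mirror image, with 545 counts on the first allele and 9 on the second. Clone B7 was low on both, with 9 counts on each allele. The first allele therefore held 4.89% of the exon 3 counts in A3 (95% exact binomial interval 2.26% to 9.08%), 3.85% in H2 (1.26% to 8.75%), 98.4% in B4 (96.9% to 99.3%) and 50% in B7 (26% to 74%), intervals that cover counting error only.

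These classes follow a rule: a clone was called low on both alleles when its exon 3 total was under 10% of the Control median, and low on 1 allele when the first allele held under 10% or over 90% of the counts. The exon 3 total was 146 CPM in A3, 470 in B4, 21.7 in B7 and 192 in H2, which is 33.3%, 107%, 4.95% and 43.9% of the Control median of 438 CPM. Control clones ranged from 213 to 720 CPM. B4 thus had few exon 3 reads on 1 allele and a total inside the Control range, with its other allele at 462 CPM, 1.51 times the Control median for that allele.

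On the 5 alleles low in exon 3, the exon held 7.15 CPM in A3, 7.64 in B4, 10.9 on each allele of B7 and 7.40 in H2. Control clones held 184 to 506 CPM on the first allele and 28.2 to 214 on the second, so all 5 values lay below every Control clone. A few reads remained on each of these alleles, and their origin was not tested.

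**Figure D1:**
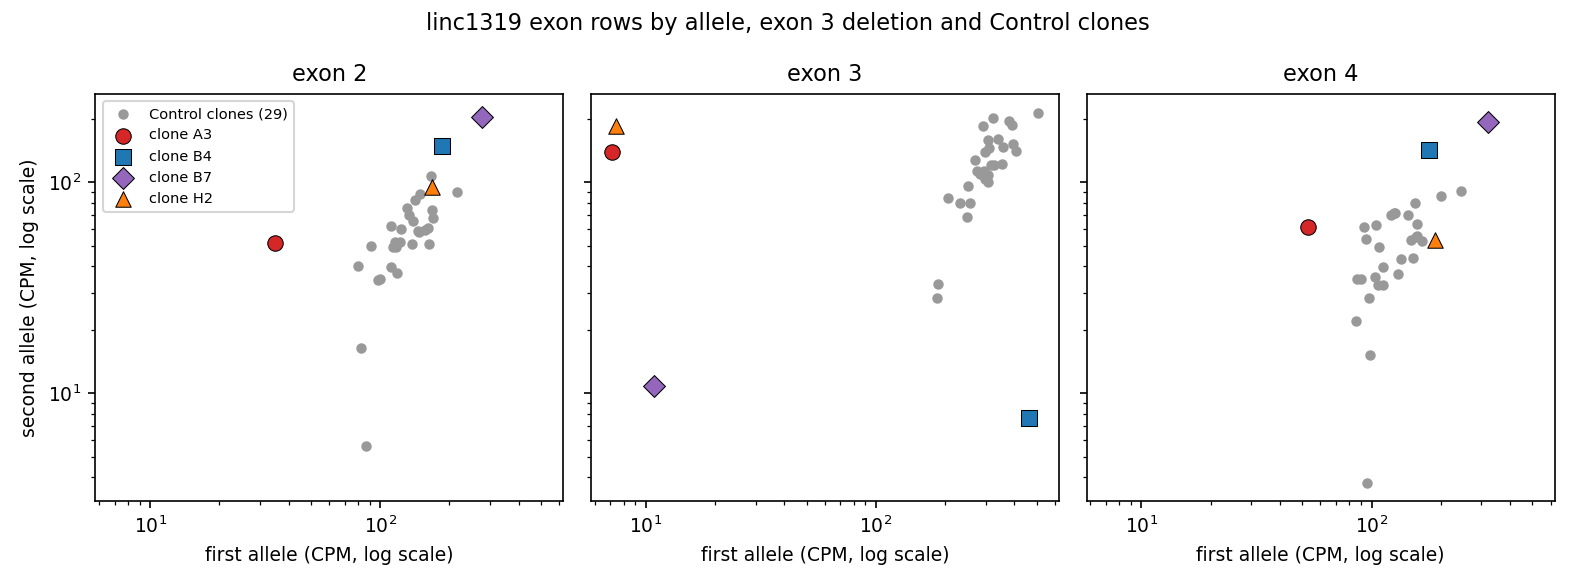
CPM of linc1319 exons 2, 3 and 4 on the first allele (horizontal, log scale) against the second allele (vertical, log scale), 1 point per clone, with 29 Control clones in grey and the 4 exon 3 deletion clones in colour. In the exon 3 panel A3 and H2 sit far to the left, B4 far below and B7 low on both axes, while in the panels of exons 2 and 4 B4 and B7 sit above the Control clones on the second allele and A3 to their left on the first.

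The exons on either side of exon 3 were still read from the alleles low in exon 3, and on most of these alleles they were at or above Control levels. In exon 2, A3 had 44 counts on the first allele and 65 on the second. B4 had 218 and 176, B7 had 230 and 169, and H2 had 114 and 64. In CPM the exon 2 total was 86.6 in A3, 334 in B4, 481 in B7 and 263 in H2, against 92.2 to 304 in Control clones (median 188). A3 lay below every Control clone, B4 and B7 above every one, and H2 inside the range.

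Exon 4 gave the same order at the top. Counts on the first and second allele were 67 and 77 in A3, 209 and 167 in B4, 267 and 160 in B7, and 127 and 36 in H2. The total was 114 CPM in A3, 319 in B4, 515 in B7 and 241 in H2, with Control clones at 99.7 to 336 CPM (median 167). Only B7 lay above every Control clone.

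Taken allele by allele, exons 2 and 4 together stood at 2.35 and 3.71 times the Control median on the first and second allele of B7, and at 2.72 times on the second allele of B4. These 3 exon-3-low alleles lay above all 29 Control clones. The first allele of H2, also low in exon 3, stood at 1.4 times and above 27 of 29. The first allele of A3 went the other way, at 0.346 times the median and below all 29. The alleles not low in exon 3 stood at 1.42 times in B4, 1.05 in A3 and 1.38 in H2, inside the Control range. On the first allele of B7 exons 2 and 4 held 497 counts, more than the 424 of the linc1319 row. The exon sum is therefore not a count of separate reads, and how many reads it counts more than once was not tested. For the linc1319 row, which includes exon 3, the fold was 1.12 and 1.78 on the first and second allele of B7. It was 1.33 on the second allele of B4, and all 3 values lay inside the Control range.

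**Figure D2:**
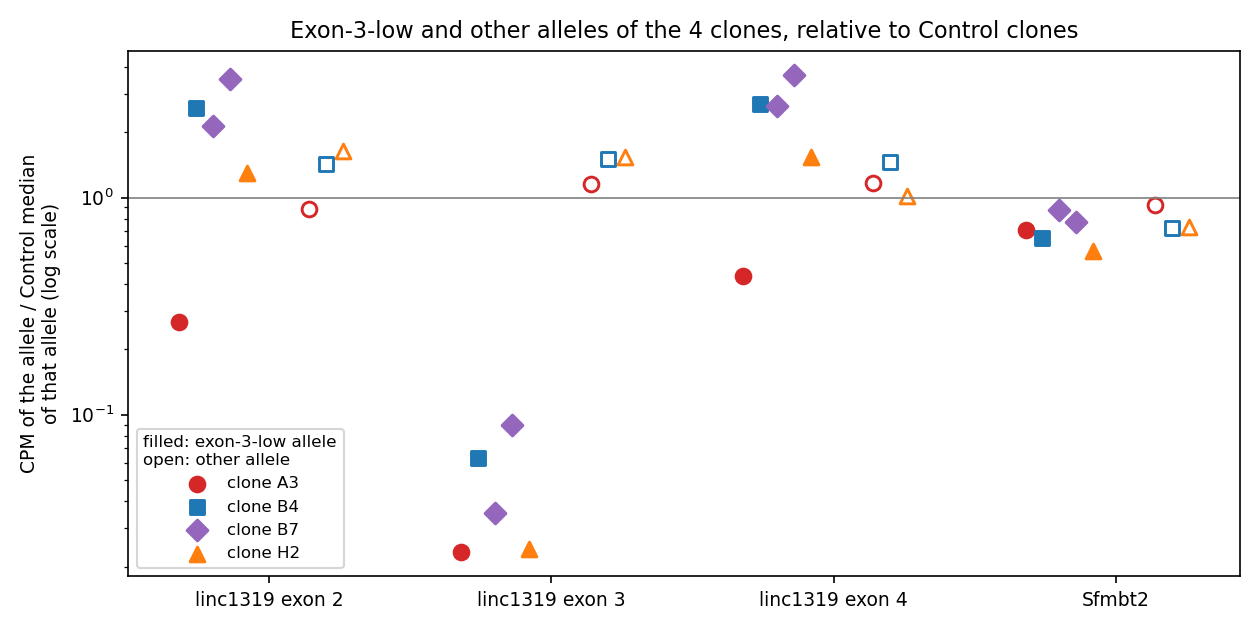
CPM of each allele of the 4 clones divided by the Control median of the same allele (log scale), for linc1319 exons 2, 3 and 4 and for Sfmbt2, with filled points for the 5 alleles low in exon 3 and open points for the other 3. Exon 3 separates filled from open points by construction, exons 2 and 4 of the filled points run from 0.268 to 3.68, and all 8 Sfmbt2 points lie between 0.566 and 0.925.

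Relative to its flanking exons, exon 3 was far below Control clones on each exon-3-low allele, with more left in A3 than in the others. For every 100 counts of exons 2 and 4, exon 3 had 8.11 on the first allele of A3, 2.62 on the second of B4, 1.81 and 2.74 on the first and second of B7, and 2.07 on the first of H2. The alleles not low in exon 3 had 123 in A3, 128 in B4 and 125 in H2, close to the Control medians of 124 on the first allele and 115 on the second. A3 had the highest residue, which comes from the same number of exon 3 counts as in B4 over fewer counts in the flanking exons (111 against 343).

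Tested over all 4 clones, no exon row passed the adjustment over all rows in edgeR's quasi-likelihood test. Exon 3 differed from Control by -1.10 ± 0.32 (log2, SE; adjusted p = 0.15), exon 2 by 0.60 ± 0.23 (adjusted p = 0.182) and exon 4 by 0.70 ± 0.22 (adjusted p = 0.15), with n = 4 against 29. These values depended on single clones. Without B4, exon 3 differed by -1.90 (edgeR, adjusted p = 0.00162). Without A3, exon 2 differed by 0.91 and exon 4 by 0.97 (edgeR, adjusted p = 0.0270 for each). Without B7, exon 2 differed by 0.22 (edgeR, adjusted p = 0.674) and exon 4 by 0.28 (edgeR, adjusted p = 0.590). The clones varied far more among themselves than Control clones did: the SD of log2 CPM in exon 3 was 4.68 times that of Control clones, against a median of 0.639 times over the 581 transcripts tested.

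The mean of the linc1319 row, which includes exon 3, was close to that of Control clones, while its values in single clones spread widely. Its total was 292 CPM in A3, 909 in B4, 832 in B7 and 571 in H2, a mean of 651 ± 280 (SD, n = 4) against 648 ± 164 (n = 29) in Control clones, which ranged from 326 to 1102. A3 lay below every Control clone and the other 3 lay inside the range. The fitted difference was -0.04 ± 0.20 (log2, SE; 95% interval -0.45 to 0.38; edgeR adjusted p = 0.932). Its sign changed without A3, to 0.21, and only 3 of 581 transcripts had a larger ratio of SD in these clones to SD in Control clones. In Control clones exon 3 averaged 352 counts and the linc1319 row 527. The loss of exon 3 reads therefore enters this total, which does not measure the number of transcripts.

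The linc1319 allele ratio followed the exon 3 class in part. Counts on the first and second allele were 113 and 255 in A3, 205 and 181 in H2, 788 and 283 in B4, and 424 and 266 in B7. As log2 ratios of first over second allele these were -1.17 in A3, 0.18 in H2, 0.67 in B7 and 1.48 in B4, with Control clones at 0.72 to 3.25 (median 1.37). A3 and H2, low in exon 3 on the first allele, and B7, low on both, lay below every Control clone, whereas B4 lay close to the Control median. In B4 the linc1319 row stood at 1.46 times the Control median on the first allele and 1.33 times on the second. Its ratio differed from the Control median by 0.11. The second allele of B4 had few reads of exon 3 and more of exons 2 and 4 than Control clones. Whether these offset each other in the ratio was not tested.

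The mean absolute deviation of the linc1319 ratio from the median of all 33 clones was 1.13 ± 1.03 (SD, n = 4) in the exon 3 deletion clones and 0.32 ± 0.37 (n = 29) in Control clones. This difference had an unadjusted p of 0.0139 in the exact two-sided permutation test over 40920 splits and did not pass adjustment over all 553 transcripts tested (adjusted p = 0.937). It rested largely on A3: without that clone the difference was 0.35 in place of 0.81 (exact permutation p = 0.114). The signed difference in mean ratio was -1.09 (95% interval -1.71 to -0.39; exact permutation p = 0.00217, adjusted p = 0.301). This signed difference pools clones low in exon 3 on the first allele, the second or both, so its size depends on that mix. The linc1319 row includes the exon 3 reads, so the loss of exon 3 reads enters this ratio.

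Sfmbt2, the neighbour the study asked about at this locus, was below the Control median in all 4 clones and on both alleles of each. Its total was 434 CPM in A3, 402 in B4, 484 in B7 and 345 in H2, a mean of 416 ± 58.2 (SD, n = 4). Control clones had 573 ± 156 (n = 29), from 343 to 879 with a median of 569. The 4 clones sat in the lower part of the Control range, with 9, 5, 10 and 2 of 29 Control clones below them in that order, and none lay outside it.

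The difference in Sfmbt2 total was -0.51 ± 0.21 (log2, SE; 95% interval -0.93 to -0.09; n = 4 against 29). With an edgeR unadjusted p of 0.0188 and an adjusted p of 0.198 it did not pass the threshold of 0.05. Against 44 Control clones, with 15 of the date 151101 added, the difference was -0.80 (edgeR adjusted p = 0.173). No transcript passed that threshold against the 29 Control clones: of 581 tested, 0% were called by edgeR after adjustment. An unadjusted p under 0.05 was common on the panel, at 18.2% of transcripts (11% lower and 7.23% higher in the exon 3 deletion clones).

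**Figure D3:**
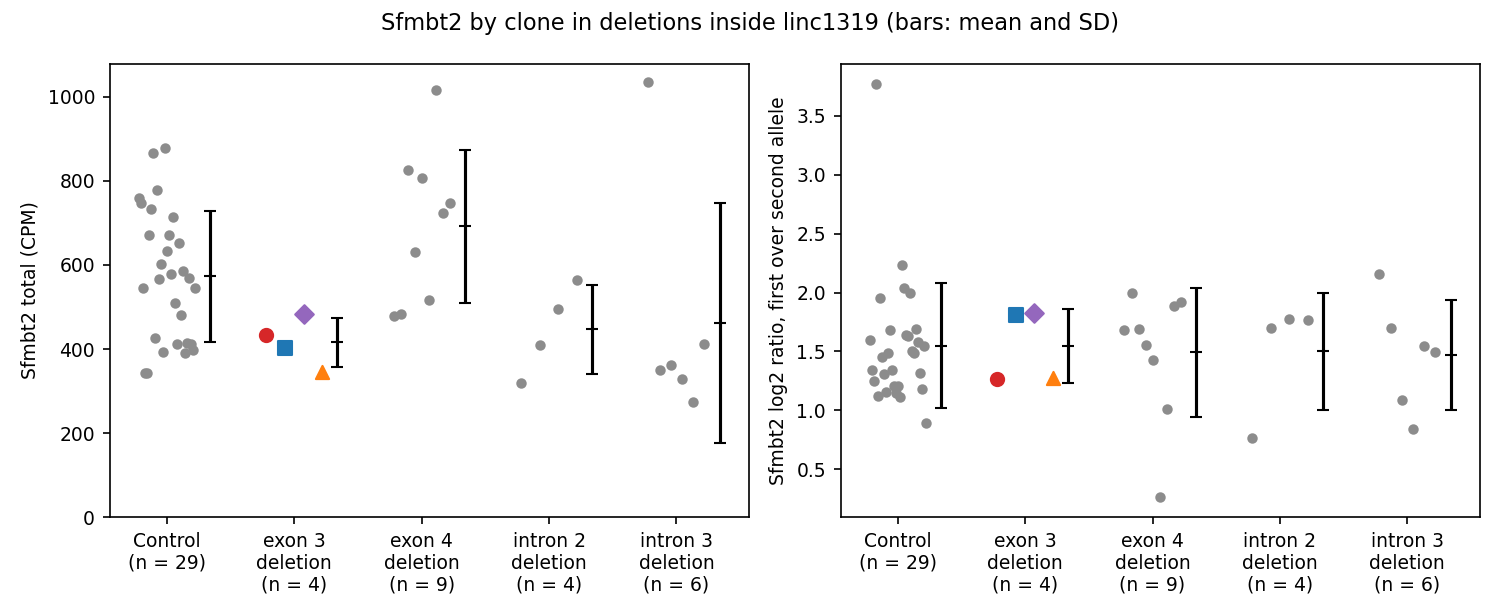
Sfmbt2 total (left, CPM) and log2 ratio of first over second allele (right) for each clone of Control, exon 3, exon 4, intron 2 and intron 3 deletion groups of the same date, with bars for the mean and SD. The exon 3 deletion clones (coloured by clone as in the exon plot) lie at 345 to 484 CPM, inside the Control range, and their ratios of 1.27 to 1.82 surround the Control median of 1.49.

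No shift in the Sfmbt2 allele ratio was detected. Counts on the first and second allele were 386 and 160 in A3, 369 and 105 in B4, 313 and 88 in B7, and 165 and 68 in H2. The log2 ratios were 1.27, 1.81, 1.82 and 1.27 in the same order, against 0.89 to 3.77 in Control clones with a median of 1.49. The mean ratio differed by -0.0038 (95% interval -0.59 to 0.63; exact permutation p = 0.987), and the mean absolute deviation was 0.27 ± 0.06 (SD, n = 4) against 0.32 ± 0.42 (n = 29; exact permutation p = 0.762, adjusted p = 0.978). The interval for the mean ratio pools clones low on opposite alleles and does not address a difference in cis.

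Ordering the ratio by the exon 3 class addresses it, for the 3 clones low on 1 allele. Relative to the Control median ratio, Sfmbt2 was lower on the exon-3-low allele than on the other allele by 0.22 (log2) in A3, by 0.32 in B4 and by 0.22 in H2. All 3 had the same direction, and 14, 10 and 14 of 29 Control clones deviated from that median by at least as much in either direction. With 3 clones whose class was read from the data, no test was made.

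In CPM, Sfmbt2 on the 5 exon-3-low alleles stood at 0.566 to 0.875 times the Control median (median 0.710). On the 3 other alleles it stood at 0.725 to 0.925 times (median 0.733). Both alleles of B7 are among the 5, so these medians are not paired within clones. The lowest was the first allele of H2, at 244 CPM against 236 to 618 in Control clones, and the next was the second allele of B4, at 89.1 CPM against 22.6 to 273. No allele lay outside the Control range.

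The order of the clones in Sfmbt2 was not that in linc1319. B7, low in exon 3 on both alleles and highest in exons 2 and 4, had the highest Sfmbt2 total of the 4 (484 CPM), and A3, with the lowest linc1319 total, had the next highest (434 CPM). B4 had the highest linc1319 total (909 CPM) and a Sfmbt2 total of 402 CPM. With 4 clones no correlation was computed.

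Both transcripts varied between the plates of the Control clones. Control clones carry plate labels (10 plates) and the exon 3 deletion clones carry none, so plate and deletion cannot be told apart. Among 28 Control clones on the 9 plates with more than 1 clone, linc1319 (edgeR adjusted p = 0.0307) and Sfmbt2 (0.0326) differed between plates, as did 204 of 577 transcripts (35.4%). Of the transcripts with an unadjusted p under 0.05 in the exon 3 deletion clones, 48.1% differed between plates, against 32.5% of the other transcripts.

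One Control library stood apart at the locus. Control clone B12 of plate 10 had 157 and 16 linc1319 counts and 170 and 12 Sfmbt2 counts on the first and second allele, giving the highest ratios of both (3.25 and 3.77, against at most 2.41 and 2.23 in the other 28 Control clones). Without it, the difference in Sfmbt2 allelic deviation changed sign, from -0.05 to 0.02 (exact permutation adjusted p = 0.961). Another 2 Control clones, E12 of plate 2 and A12 of plate 9, stood apart in the ratio of X-linked transcripts, where the exon 3 deletion clones (0.02 to 0.08, log2) lay inside the range of the other Control clones (-0.22 to 0.12). Of the calls named here, none changed without any of these 3 clones.

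Of 11 other captured transcripts within 1 Mb of linc1319, Sfmbt2 included, 5 were abundant enough to test. The remaining 6 (4930412O13Rik, 8030442B05Rik, 9230102O04Rik, Itih2, Itih5 and Prkcq) had mean counts below the minimum of 10. Taf3, a TFIID subunit that reads H3K4 trimethylation, lies 280 kb away and had 1641 CPM in A3, 1677 in B4, 1562 in B7 and 1566 in H2, against 1536 to 2075 in Control clones. All 4 clones were below the Control median of 1699.5 CPM and inside the range. The difference was -0.14 ± 0.07 (log2, SE; edgeR unadjusted p = 0.0359, adjusted p = 0.254), -0.24 against the 44 Control clones and -0.095 with library size alone.

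Gata3, a zinc finger transcription factor of trophoblast and T cells, had 480 CPM in A3, 362 in B4, 497 in B7 and 423 in H2. These values lay above the Control median of 346 CPM and inside the range of 125 to 557. The difference was 0.33 ± 0.19 (log2, SE; edgeR adjusted p = 0.329). Gata3 was read almost only from the first allele in every clone: 603 and 2 counts in A3, 424 and 2 in B4, 412 and 0 in B7, and 284 and 2 in H2. The first allele held 99.3% to 100% of Gata3 counts in these clones and 97.3% to 100% in Control clones, so the second allele gives no information on an allelic response.

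Kin, which encodes a DNA- and RNA-binding zinc finger protein, had a total close to that of Control clones. Its allele ratio lay at or below the low end of the Control range in 3 clones. Its total differed by -0.01 ± 0.08 (log2, SE; edgeR adjusted p = 0.968). Counts on the first and second allele were 498 and 489 in A3, 410 and 394 in B4, 331 and 308 in B7, and 268 and 190 in H2. The log2 ratios of 0.026, 0.057 and 0.104 in A3, B4 and B7 lay below every Control clone (0.106 to 0.83), B7 by little. That of H2 (0.50) lay above 24 of 29. The share of tested transcripts with as many clones outside the Control range was not computed. The signed difference was -0.19 (95% interval -0.39 to 0.0058; exact permutation p = 0.0557, adjusted p = 0.857), and A3 and B4, low in exon 3 on opposite alleles, deviated the same way. The Kin total differed between Control plates (edgeR adjusted p = 0.0307), and its ratio was not tested between plates. Atp5c1, the gamma subunit of mitochondrial ATP synthase, differed by 0.03 ± 0.09 in total (log2, SE; edgeR adjusted p = 0.874), and its ratios of 0.30 to 0.56 lay inside the Control range of -0.25 to 0.73.

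**Figure D4:**
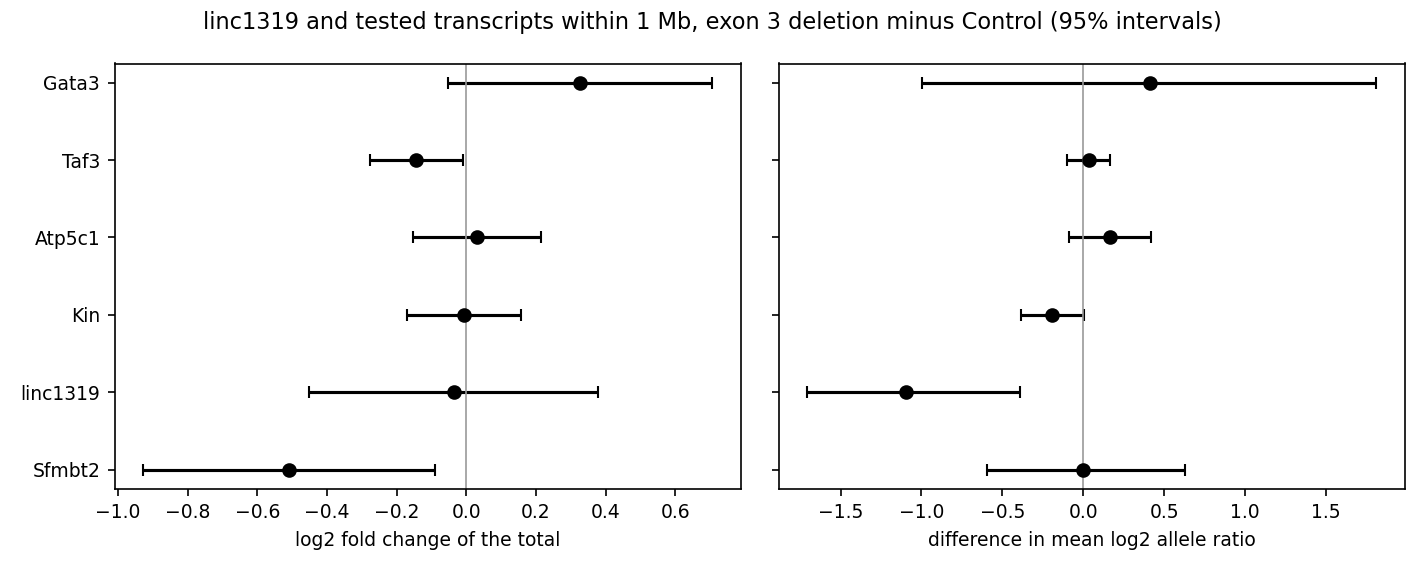
Difference between exon 3 deletion and Control clones in total (left, log2 fold change from edgeR) and in mean log2 allele ratio (right), for linc1319 and the 5 tested transcripts within 1 Mb, with 95% intervals. Sfmbt2 has the lowest total (-0.51) with a ratio difference near 0, while linc1319 has a total near 0 and the lowest ratio difference (-1.09). The ratio differences pool clones low in exon 3 on opposite alleles.

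Of 4 other internal deletions of linc1319 with the same date, those of exon 4, intron 2 and intron 3 were compared with the exon 3 deletion directly in 12 pairs (3 groups, linc1319 and Sfmbt2, total and allelic deviation), and the intron 1 deletion (3 clones) was not analysed here. Exon 4 deletion clones (n = 9) had 479 to 1017 CPM of Sfmbt2 with a median of 723. The exon 3 deletion clones were lower by 0.70 on the log2(CPM + 1) scale (95% interval -1.15 to -0.25; exact permutation p = 0.00839 over 715 splits), which did not pass adjustment over the 12 pairs (adjusted p = 0.101).

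Intron 2 deletion clones (n = 4) had 320 to 564 CPM of Sfmbt2, a difference of -0.08 (95% interval -0.71 to 0.60; exact permutation adjusted p = 1). Intron 3 deletion clones (n = 6) had 274 to 1036 CPM, a difference of 0.0021 (-0.81 to 0.68; exact permutation adjusted p = 1). These intervals are wide and do not show that the deletions act alike. With 4 clones against 4 the smallest p is 0.0286.

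The linc1319 total went the other way against the exon 4 deletion, whose clones had 218 to 626 CPM with a median of 378. The exon 3 deletion clones were higher by 0.67 (95% interval -0.06 to 1.39; exact permutation p = 0.0685, adjusted p = 0.411), and by 1.01 without A3 (exact permutation adjusted p = 0.0818). The linc1319 row includes the reads of exons 3 and 4, which averaged 352 and 148 counts in Control clones against 527 for the row. Fewer reads of each deleted exon thus lower the total by unlike amounts, and the difference was not corrected for this. Against the intron 2 and intron 3 deletions the differences were -0.44 (-2.02 to 0.79) and 0.02 (-0.72 to 0.65), each with an exact permutation adjusted p of 1, and the former was -0.10 without A3. All 6 comparisons of allelic deviation also had an exact permutation adjusted p of 1. In the exon 4 deletion clones it was the exon 4 row that lay below every Control clone, at 5.93 to 90.3 CPM against at least 99.7 CPM, and the exon 3 row stood at 163 to 463 CPM. Intron 2 deletion clones had 28.1 to 234 CPM of exon 2, 324 to 814 of exon 3 and 182 to 490 of exon 4. Only B3 of that group lay above the Control maximum of 720 CPM in exon 3 (814) and 336 in exon 4 (490). The other clones of the group reached at most 653 and 313 CPM. In exon 2, B3 (28.1 CPM) and B6 of that group (59.3) lay below the Control minimum of 92.2. Intron 3 deletion clones had 197 to 262, 244 to 469 and 89.2 to 177 CPM of exons 2, 3 and 4.

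Across the panel, 0 of 581 transcripts passed the edgeR test of totals and 0 of 553 (0%) passed the allele ratio test, where 21 (3.8%) had an unadjusted p under 0.05. At an unadjusted p under 0.05, 106 transcripts differed in total, 64 lower and 42 higher. DESeq2 called 11 (9 lower and 2 higher, with 349 adjusted p-values set aside by its filter). The transcript with the smallest p was Cd4, a T cell coreceptor, named after its values were seen: 213 CPM in A3, 277 in B4, 168 in B7 and 126 in H2 against 18.3 to 145 in Control clones. Its difference was 1.13 ± 0.26 (log2, SE; edgeR adjusted p = 0.0604), and only the fit without H2, of the 4 that leave out a clone, passed the threshold (1.27, edgeR adjusted p = 0.0465). The adjusted p was 0.271 without A3, 0.360 without B4 and 0.166 without B7 in edgeR.

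Smg5, a factor of nonsense-mediated mRNA decay on chromosome 3, was the 1 transcript of 581 (0.172%) for which all 4 clones lay below every Control clone, and was also named after its values were seen. It stood at 5892 CPM in A3, 5454 in B4, 5901 in B7 and 5969 in H2, against 5993 to 11046 in Control clones. The difference was -0.50 ± 0.17 (log2, SE; edgeR adjusted p = 0.172; DESeq2 adjusted p = 0.0486). Smg5 also differed between Control plates (edgeR adjusted p = 1.25e-06). No transcript had all 4 clones above every Control clone (0%).

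**Figure D5:**
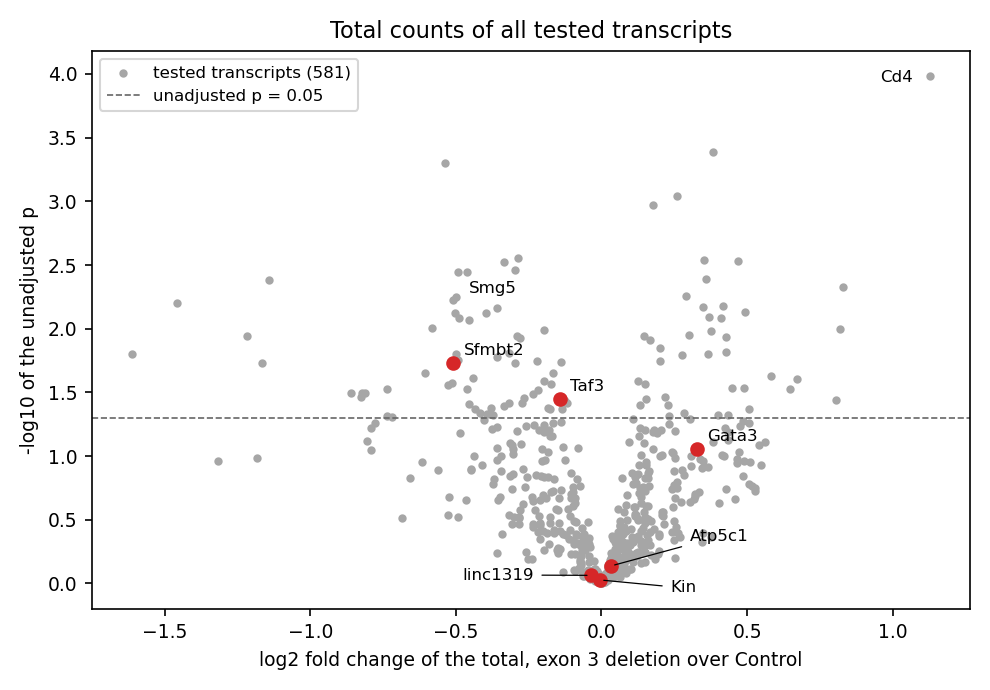
Log2 fold change of the total (horizontal) against -log10 of the unadjusted edgeR p (vertical) for 581 transcripts, with linc1319 and the tested transcripts within 1 Mb in red and a dashed line at an unadjusted p of 0.05. Sfmbt2 (-0.51) and Taf3 (-0.14) lie above the line among 106 transcripts that do, and linc1319, Kin and Atp5c1 lie at the base.

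The gene lists looked at beside the locus held few panel members, and none passed the adjusted test. Of 20 pluripotency factors 3 were tested, with a median log2 difference of -0.26 against 0.02 over all transcripts: Nanog at -0.26, Dppa3 at -0.26 (-0.50 against the 44 Control clones) and Tcl1 at 0.28. Of 16 lineage markers 3 were tested (median 0.33): Eomes at 0.48, Gata3 at 0.33 and Nes at -0.39. Eomes was 0.24 without B4, and against the 44 Control clones Gata3 was 0.58 and Nes -0.86. Eomes, a T-box factor of mesendoderm and trophoblast, ranged from 311 CPM in H2 to 876 in B4, against 195 to 801 in Control clones.

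Of 15 Polycomb genes 4 were tested (median -0.24): Sfmbt2, Eed (-0.30), Phc1 (-0.17) and Yy1 (-0.02). Against the 44 Control clones the sign of Eed turned, to 0.25 (edgeR adjusted p = 0.880), and with library size alone that of Yy1 did, to 0.032. Eed, a core subunit of PRC2, had 80.6 to 120 CPM against 72.9 to 185 in Control clones, and Phc1, a PRC1 subunit, had 14398 to 16428 CPM against 14063 to 22001. Of 13 imprinted or X-linked RNAs 5 were tested (median -0.31), the maternally expressed Meg3 (-0.40), Rian (-0.31) and Mirg (-0.11) and the paternally expressed Dlk1 (0.25) and Rtl1 (-0.78) of one imprinted domain. Against the 44 Control clones Meg3 was -0.71 and Rian -0.50, and Mirg ran from -0.22 to -0.029 when 1 clone was left out. The last pair rest on few reads, at 4.83 to 22.1 and 8.88 to 16.9 CPM in the exon 3 deletion clones.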

How the data were processed

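Libraries were poly(A)+ RNA-seq after hybrid selection of a pool of barcoded libraries, per the labels' protocols. The authors deposited raw counts, whole numbers for each transcript on each parental allele. Coordinates are in mm9, a build that the submitters' processing notes name. Alignment, counting and allele assignment are not described in the sources used here. Each file has 908 rows; 7 duplicates were dropped, 5 exon rows were kept apart and 896 transcript rows were used, of which 879 names matched the reference tables and 57 had no count in the 33 libraries. Reads covering no strain difference are not in the totals. Over all 2415 pairs of the 70 libraries used, chi-square per degree of freedom was at least 3.55, so none agreed within sampling noise.

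Totals were tested with edgeR 4.0.16 in R 4.3.3 (TMM, quasi-likelihood test, rows with 10 or more counts on average, Benjamini-Hochberg adjustment, threshold 0.05). Log2 allele ratios used a pseudocount of 0.5 and clones with at least 20 counts, and their mean absolute distance from the median of all 33 clones was tested by exact permutation in Python 3.11.15 with SciPy 1.17.1. Intervals of permuted differences were found by inverting the test in steps of 0.01 refined by bisection. The alternatives included DESeq2 1.42.0, no TMM factor, no filter, the 44 Control clones of the dates 150801 and 151101 (those with this transcript list), Control clones summed by plate, 50 allele counts, allele fractions, signed differences, 10 CPM as pseudocount, and leaving out each clone; leaving out 3 Control clones was added after values were seen. The scripts were tested on simulated data. Named genes are linc1319, its exon rows, tested transcripts within 1 Mb, called transcripts, and list members; since edgeR, as set out above, called none of 581, Cd4, Smg5 and Med1 are named as chosen after their values were seen. The members, the lists and the tests were chosen with earlier results of these data known. Samples of other groups and assays were not used here. No sequence is printed.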

Additional observations from a re-analysis of the deposited data

Results flagged for a closer look

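Within the 4 exon 3 deletion clones, 33 sets of 4 values were checked for a clone far from the other 3 (the gap to its nearest neighbour over the whole range), and 3 stood out. Chance marks about 1 in 20 such sets. The Kin log2 allele ratio was 0.50 in clone H2, against 0.03 to 0.10 in the other 3. The Smg5 total was 5454 CPM in clone B4, against 5892 to 5969 CPM. The total of Med1, a Mediator subunit that differed between Control plates (edgeR adjusted p = 0.000219), was 1221 CPM in clone A3, against 1029 to 1061 CPM.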

How the results depend on the processing

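No paired analysis was possible because the clones carry no replicate number shared with Control clones. Calls by total, 0 as reported, were 11 with DESeq2, 1 with library size alone (Cd4) and 0 to 1 when each exon 3 deletion clone was left out; calls by allele ratio were 0 under all 11 alternatives, where leaving out a clone leaves too few splits for 1 transcript to pass alone. Exon 3 was -1.11 with DESeq2 (adjusted p = 0.0228). Leaving out 1 clone gave -1.90 to -0.74 for exon 3, 0.22 to 0.91 for exon 2 and 0.28 to 0.97 for exon 4 (log2), and the lowest values of exons 2 and 4 came without B7. Sfmbt2 total kept its sign over 12 alternatives, from -0.80 to -0.45, with an adjusted p of at least 0.173 in the edgeR fits. DESeq2 gave Sfmbt2 an unadjusted p of 0.00978 and no adjusted p, which its filter set aside.

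These signs changed: linc1319 total was 0.0055 with library size alone and -0.24 to 0.21 without 1 clone (0.0020 without H2); Kin total was 0.040 with library size alone, 0.00032 without Control clone E12 of plate 2, 0.020 without B4, 0.0066 without H2 and -0.050 without B7; Atp5c1 total was -0.023 to 0.057 without 1 clone; Yy1 was 0.032 with library size alone; Eed was 0.25 with the 44 Control clones of 2 dates; Sfmbt2 allelic deviation was 0.022 without Control clone B12 of plate 10. Against the exon 4 deletion, the linc1319 allelic difference was -0.39 to 0.42 without 1 clone. Against the intron 2 deletion, the Sfmbt2 total was -0.16 to 0.0041 without 1 clone. Against the intron 3 deletion, leaving out 1 clone gave -0.18 to 0.36 for linc1319 total, -0.48 to 0.33 for its allelic difference and -0.074 to 0.089 for Sfmbt2 total, which was -6.3e-06 with 10 CPM added. The cause of these changes was not tested. With 4 clones in 3 classes, the spread between clones limits every mean.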
